A study of Mus musculus with 6 samples.

Results

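The genes described here are 48 antioxidant, glutathione and thioredoxin genes of the kind that the transcription factor NRF2 is known to control, followed in newborn mouse epidermis with and without an active aryl hydrocarbon receptor (AhR). They were taken by symbol from a written list, through the RefSeq accession that the array gives for each probe, and all 48 had a probe among the 18217 genes named on the array. A total of 46 passed the filter on dim probes, out of 12824 genes tested, and each of the 46 was well above background on all 6 arrays. The remaining members, Gpx3, a secreted glutathione peroxidase, and Gstt1, a theta class glutathione transferase, were not well above background on any array and have no value here.

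NRF2, encoded by Nfe2l2, is held in the cytoplasm and marked for destruction by KEAP1. Oxidants and electrophiles modify KEAP1, and NRF2 then enters the nucleus and binds antioxidant response elements (ARE) in genes for quinone reduction, glutathione synthesis, the thioredoxin cycle and NADPH supply. AhR is a transcription factor that binds xenobiotic response elements (XRE) together with its partner ARNT, and Nqo1 is known as a gene with both kinds of element. Keratinocytes meet oxidants and chemicals at the body surface, so these genes are well known in epidermis.

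The samples were epidermis of 3 AhRCA and 3 wild-type (WT) mice of mixed strain at postnatal day 0. AhRCA mice carry a constitutively active AhR driven by the keratin 14 promoter, which is active in basal keratinocytes and in the other epithelia that express keratin 14. WT mice were littermates without treatment named in the labels, and each of the 3 samplings took 1 mouse of each genotype, so that equal replicate numbers are litter pairs. Each RNA, labelled with Cy3, was measured on a separate 1-colour Agilent array.

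Well-above-background spots made up 56.2% to 61.3% of each array and 0 spots were saturated, so precision is set by the 3 arrays in each group. Pairs 1 and 2 lay on slide 1 and pair 3 on slide 2. Xist, which is transcribed from the inactive X, lay between 4.43 and 4.66 in pairs 1 and 2, and at -4.20 and -7.14 in pair 3. By this transcript pair 3 was male and the others female, so slide, pair and sex coincided there and were balanced between genotypes. Cyp1a1, the classical AhR target, lay between -3.96 and -2.18 in WT and between 3.32 and 5.04 in AhRCA. The further AhR targets Cyp1b1, Ahrr and Tiparp were higher by 5.34, 5.91 and 1.45 on the log2 scale (adjusted p = 5.62e-05, 0.00164 and 0.00236, limma). The keratinocyte markers Krt5, Krt14, Krt1, Krt10 and Trp63 were all measured, with 0 of 5 changed. Markers of other cells moved with genotype: 6 of 6 tested sebaceous gland genes fell, their summed linear level being 21.7 to 28.9 in WT and 7.20 to 7.99 in AhRCA, and 3 of 4 tested Merkel cell genes fell, with sums of 1.38 to 2.19 and 0.408 to 0.618. In the hair follicle list 2 of 9 fell, with sums of 237 to 309 and 209 to 271. Sox9 was not among them by its brightest probe (-0.14 on the log2 scale). Its further probes gave -1.08 and -1.10, each without overlap. Of 6 tested Langerhans cell or macrophage genes, Adgre1, a macrophage surface receptor, rose by 0.67 on the log2 scale (adjusted p = 0.0321, limma). In the same list Cd207, which encodes langerin of Langerhans cells, fell at least 3.09-fold (adjusted p = 0.0206, limma). It was well above background on 0 of 3 AhRCA arrays. Cd74 of this list lay below WT without overlap, at -1.15 on the log2 scale (adjusted p = 0.182, limma). With the litter pair or the slide as a block Cd74 fell (adjusted p = 0.0114 and 0.00707, limma). Cd207 and the Merkel cell gene Piezo2 passed the filter through their WT arrays alone, so they had to differ, and their calls are given as descriptions. The 3 Merkel cell genes counted above include Piezo2, and the others were Krt20 and Krt8. The sums of the Langerhans cell or macrophage list were 9.08 to 11.2 in WT and 8.18 to 9.12 in AhRCA. In the T cell, mast cell, melanocyte, fibroblast, adipocyte, erythroid and skeletal muscle lists 0 tested genes passed in the unpaired fit. Sums were lower without overlap in the T cell list (1.42 to 2.68 in WT, 1.25 to 1.34 in AhRCA). So were those of the muscle list (0.342 to 0.523, 0.207 to 0.281). Single genes of the T cell list differed in sign. Thy1, Cd3g and Cd3e had -1.36, -1.03 and -0.17 on the log2 scale, and Ptprc had 0.40. With the litter pair as a block Lpl (adipocyte), Myh8 (muscle) and Slc4a1 (erythroid) fell (adjusted p = 0.0225, 0.0444 and 0.0461, limma). Thy1 (T cell), Col1a2 (fibroblast) and Krt18 (Merkel cell) fell with the slide as a block (0.0456, 0.0464 and 0.0331, limma). The defining markers Atoh1 (Merkel cells) and Mc5r (sebocytes) were not well above background on any array, nor were any of 5 endothelial markers. In tissue of mixed cells, fewer cells of a type and less RNA per cell cannot be told apart.

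Values are log2 processed intensities minus the 75th percentile of the array, so that 1 unit is a 2-fold difference. They compare a gene between arrays and not one gene with another. A gene is said to have risen or fallen where limma gave a Benjamini-Hochberg adjusted p under 0.05 over all genes tested. Because the mice were littermates, a second adjusted p, from the fit that takes the litter pair as a block, is given where its call differs.

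Of the 46 tested members 3 rose in AhRCA epidermis and 0 fell (limma). They were Nqo1, a quinone reductase, Osgin1, an oxidative stress-induced growth inhibitor, and Xdh, which oxidizes xanthine to uric acid. In all 2.18% of the genes tested were called, 0.53% as higher and 1.65% as lower, against 6.52% of the members. With the litter pair as a block 5 members rose and 1 fell, where 3.88% of all genes were called, 1.07% as higher and 2.81% as lower. With the slide as a block 5 also rose and 1 fell, where 4.2% were called, 1.29% as higher and 2.91% as lower. On slide 1 alone 1 member rose and 0 fell, where 1.01% were called, 0.273% as higher and 0.741% as lower. An unadjusted p under 0.05 was found for 11 members with higher and 4 with lower values (background 12.2% in all, 4.62% higher and 7.57% lower). The median log2 fold change of the members was 0.04 and that of all genes 0.001, and 30 of 46 members (65.2%) had a log2 fold change under 0.3 in size, against 80.3% of all genes. The members were therefore spread more widely than all genes, with the larger values mainly on the upper side. Since they were chosen with results of these data known, the counts describe them and test nothing about the list.

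**Figure D1:**
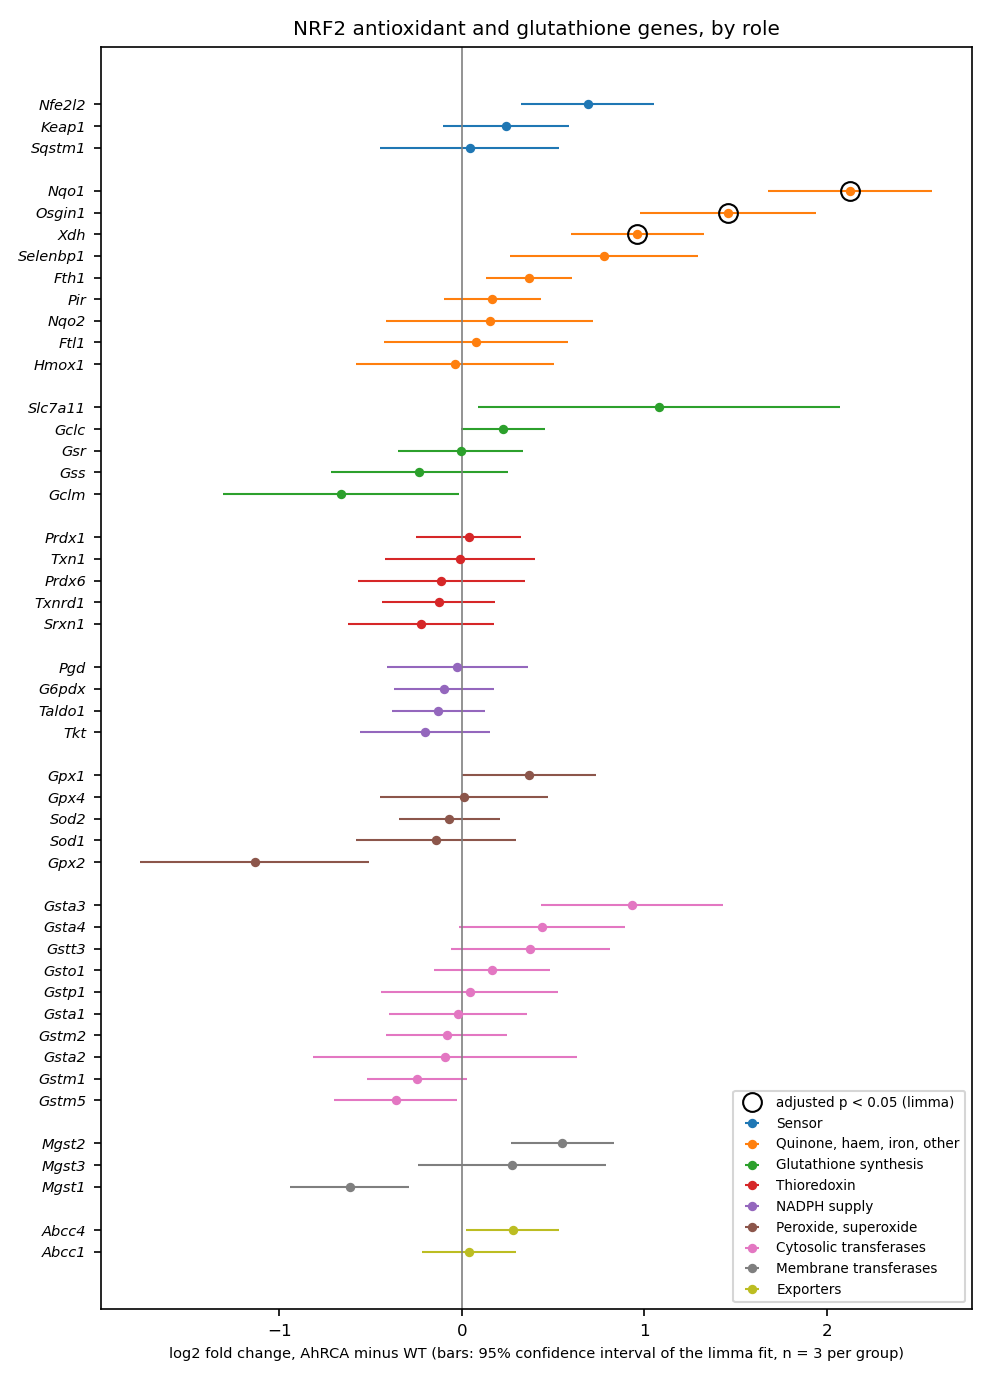
Log2 fold change of AhRCA minus WT (x axis) for the 46 tested members (y axis), grouped and coloured by role, with 95% confidence intervals of the limma fit and n = 3 per group. Nqo1, Osgin1 and Xdh, circled in black, are the members past the adjusted threshold, and the 5 thioredoxin and 4 NADPH genes lie within 0.3 of zero.

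**Figure D2:**
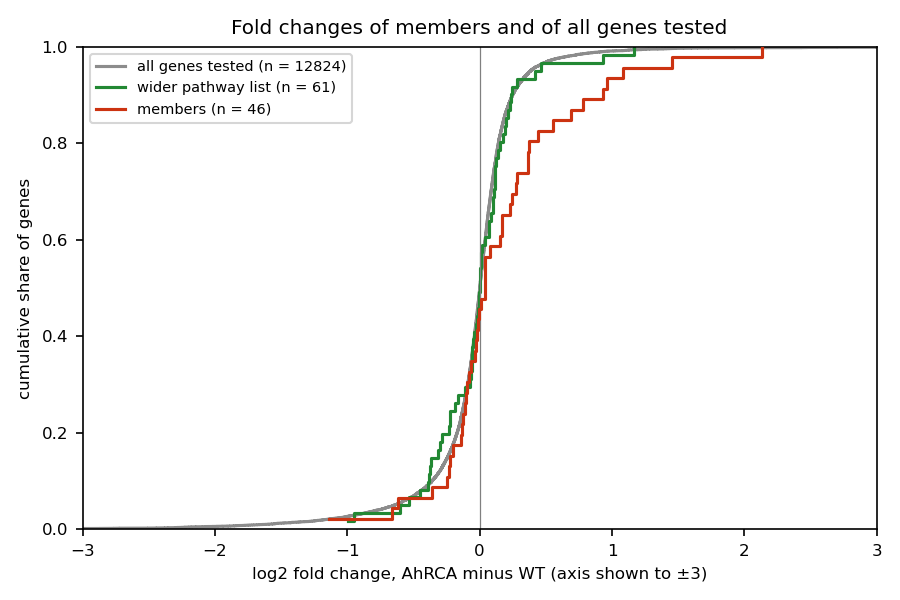
Cumulative share of genes (y axis) against the log2 fold change of AhRCA minus WT (x axis, shown to ±3) for 46 members, 61 other genes of the pathway and 12824 genes tested. The curves meet near zero, where the medians are 0.04, 0.001 and 0.001, and the member curve runs to the right of the others in its upper part.

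Promoter windows were read for the members listed in a RefSeq table of GRCm38.p6, from 250 bases before to 50 bases after the gene start. It held 53 windows for 41 of the 48 members. They were searched on both strands for the ARE core TGACNNNGC and the XRE core GCGTG. These motifs share letters and overlap in some windows, for example in those of Sod1 and Gstm5. An ARE core stood in the windows of 13 of 41 members (31.7%), against 14.0% of all genes in the table, and an XRE core in those of 27 (65.9%), against 35.2%. The longer XRE letters TNGCGTG were found in 4 (9.76%), against 5.84%. Member windows had a median GC content of 56.3%, and all windows 52.7%; the shares were not matched for it.

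The windows of 5 members are shown. Nqo1, Osgin1 and Gsta3 are some of the members that rose in the unpaired fit or with a block. Gclm and Srxn1 are classical NRF2 targets that did not pass in any setting. Nqo1 lies at chr8:107403156-107403455 on the minus strand, Osgin1 at chr8:119436897-119437196 on the plus strand and Gsta3 at chr1:21240335-21240634 on the plus strand. Gclm lies at chr3:122245307-122245606 and Srxn1 at chr2:152105274-152105573, both on the plus strand. Capitals mark the ARE and XRE cores on either strand; an XRE core on the other strand reads CACGC.
Nqo1: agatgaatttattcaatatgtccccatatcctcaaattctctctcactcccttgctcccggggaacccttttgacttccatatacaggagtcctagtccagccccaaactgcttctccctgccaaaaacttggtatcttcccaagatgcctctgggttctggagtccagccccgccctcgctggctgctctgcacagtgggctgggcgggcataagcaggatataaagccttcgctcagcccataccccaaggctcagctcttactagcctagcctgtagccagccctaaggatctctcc
Osgin1: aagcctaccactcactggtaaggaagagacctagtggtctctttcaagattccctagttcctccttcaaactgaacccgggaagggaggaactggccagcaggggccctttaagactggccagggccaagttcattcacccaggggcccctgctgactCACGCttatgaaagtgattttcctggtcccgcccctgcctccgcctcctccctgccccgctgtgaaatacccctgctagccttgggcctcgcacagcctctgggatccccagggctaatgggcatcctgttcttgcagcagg
Gsta3: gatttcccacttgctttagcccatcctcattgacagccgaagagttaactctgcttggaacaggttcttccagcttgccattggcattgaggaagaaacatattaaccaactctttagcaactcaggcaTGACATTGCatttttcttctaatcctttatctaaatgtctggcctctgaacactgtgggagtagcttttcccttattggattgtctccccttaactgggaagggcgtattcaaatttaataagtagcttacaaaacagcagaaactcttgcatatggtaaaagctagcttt
Gclm: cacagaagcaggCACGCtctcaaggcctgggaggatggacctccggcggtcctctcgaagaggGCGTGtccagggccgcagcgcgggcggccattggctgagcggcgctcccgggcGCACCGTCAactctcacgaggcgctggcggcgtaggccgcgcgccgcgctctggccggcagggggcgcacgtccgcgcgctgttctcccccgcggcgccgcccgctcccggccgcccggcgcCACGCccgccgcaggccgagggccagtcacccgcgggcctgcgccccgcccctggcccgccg
Srxn1: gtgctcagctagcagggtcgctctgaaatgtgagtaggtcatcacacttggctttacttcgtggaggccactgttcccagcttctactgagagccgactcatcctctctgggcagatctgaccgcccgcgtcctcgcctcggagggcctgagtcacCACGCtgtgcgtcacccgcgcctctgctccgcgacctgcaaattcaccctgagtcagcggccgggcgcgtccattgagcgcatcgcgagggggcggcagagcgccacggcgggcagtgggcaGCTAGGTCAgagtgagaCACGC

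The Nqo1 window held neither core, that of Osgin1 held 1 XRE core at -92 to -88 from the start, and that of Gsta3 held 1 ARE core, TGACATTGC, at -121 to -113. Slc7a11 and Mgst2, which rose with a block and are not shown, had windows that held neither core. No window was available for Xdh. Both classical targets held both cores: Gclm 1 ARE and 3 XRE cores, Srxn1 1 ARE and 2 XRE cores. Among the other members, the ARE core was present in Nfe2l2, Txnrd1, Prdx1, G6pdx, Pgd, Pir, Sod1, Abcc4, Mgst1 and Gstm5, of which none passed in the main fit. The ARE letters searched began with TGAC, so TGAGTCAGC, with G in place of that C, was not counted. It stands in the Srxn1 window on the plus strand. In the Osgin1 window it stands on the minus strand and overlaps the XRE core. The counted matches are descriptions of the searched letters in a 300-base window. They say nothing about variant letters or about elements outside the window.

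A mixed group of quinone, haem, iron and other genes held all 3 calls: 3 of 9 rose, 0 fell, and their median was 0.37. Of the called genes, Osgin1 and Xdh were placed in it as other genes. Nqo1, which reduces quinones by transfer of 2 electrons, stood at -2.71, -2.64 and -3.07 in WT 1 to 3 and at -0.93, -0.37 and -0.74 in AhRCA 1 to 3. Every AhRCA array lay above every WT array by a wide gap. The log2 fold change was 2.13 ± 0.19 (SE, n = 3 per group), or 4.38-fold, with an adjusted p of 0.00546 (limma), and only 0.148% of genes had a larger rise. The difference was 1.78, 2.28 and 2.33 in pairs 1 to 3. Nqo1 remained past the threshold whichever array was left out (adjusted p 0.0166 to 0.0264), but not on slide 1 alone (log2 fold change 2.03, adjusted p = 0.0514, limma). With normexp background correction its log2 fold change was 1.50. Its paralogue Nqo2, which uses dihydronicotinamide riboside in place of NADPH, had -1.50, -1.71 and -2.02 in WT and -1.13, -1.72 and -1.92 in AhRCA. These groups overlapped, with a log2 fold change of 0.15 ± 0.24 and a 95% confidence interval of -0.41 to 0.72, so that a rise of the size of that of Nqo1 lies outside it.

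Osgin1 stood at -1.88, -1.55 and -1.70 in WT and at 0.06, -0.16 and -0.65 in AhRCA. All AhRCA values were higher, AhRCA 3 the least so. The log2 fold change was 1.46 ± 0.20 (2.75-fold, adjusted p = 0.0220, limma), and its further probe gave 1.38. The differences within pairs were 1.94, 1.38 and 1.05. Its call was lost without WT 1 (adjusted p = 0.0623), WT 2 (0.0688), WT 3 (0.0605), AhRCA 1 (0.0632) or AhRCA 2 (0.103), and kept without AhRCA 3 (0.0174) and on slide 1 alone (0.0465, limma). Xdh stood at 0.19, 0.28 and 0.56 in WT and at 1.42, 1.09 and 1.41 in AhRCA, again with no overlap. Its log2 fold change was 0.96 ± 0.15 (1.95-fold, adjusted p = 0.0323, limma), with 0.98 in its further probe, and differences of 1.23, 0.81 and 0.85 within pairs. The call of Xdh was lost without WT 1 (0.0935), WT 2 (0.140), AhRCA 1 (0.124), AhRCA 2 (0.0723) or AhRCA 3 (0.0999), and on slide 1 alone (0.0772), while without WT 3 it held (0.0419, limma). Osgin1 and Xdh thus each lost their call without 5 of the 6 arrays, and Nqo1 without 0 of 6.

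Hmox1, which breaks down haem and is among the best-known NRF2 targets, stood at 4.50 and 4.76 in WT 1 and 2 and at 4.95, 4.49 and 4.34 in AhRCA. The WT 3 spot was marked as an outlier by the scanner software and left out; its value would have been 4.34. The groups overlapped, with a log2 fold change of -0.03 ± 0.22 from 2 WT and 3 AhRCA arrays (0.06 with that spot kept) and a 95% interval of -0.58 to 0.51. The ferritin heavy chain gene Fth1, whose product stores iron released from haem, was at 6.41, 6.48 and 6.49 in WT and 6.88, 6.85 and 6.76 in AhRCA. Its groups did not overlap, but the log2 fold change of 0.37 ± 0.10 missed the threshold (adjusted p = 0.151, limma). The ferritin light chain gene Ftl1 had 0.08 ± 0.21 and the X-linked gene Pir, which encodes the iron protein pirin, 0.17 ± 0.11. Selenbp1, a selenium-binding protein, had 1.55, 1.56 and 2.01 in WT and 2.41, 2.87 and 2.18 in AhRCA. Its log2 fold change of 0.78 ± 0.22 did not pass (adjusted p = 0.165, limma), and the difference in pair 3, 0.18, was smaller than in pairs 1 and 2, at 0.86 and 1.31.

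The sensor genes did not pass, 0 of 3. Nfe2l2, which encodes NRF2 itself, was at 2.04, 1.68 and 1.84 in WT and at 2.42, 2.45 and 2.77 in AhRCA, with no overlap and the same direction in 3 of 3 pairs. Its log2 fold change was 0.69 ± 0.15 (1.61-fold) with an adjusted p of 0.0880, and of 0.0787 and 0.0617 with the litter pair or the slide as a block (limma). A further Nfe2l2 probe gave 0.60. Keap1, the inhibitor that marks NRF2 for degradation, was at 2.60, 2.44 and 2.19 in WT and at 2.75, 2.71 and 2.49 in AhRCA. The groups overlapped and the value was 0.24 ± 0.14 (adjusted p = 0.684, limma). Sqstm1, an autophagy receptor that can bind KEAP1, had 0.04 ± 0.21.

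**Figure D3:**
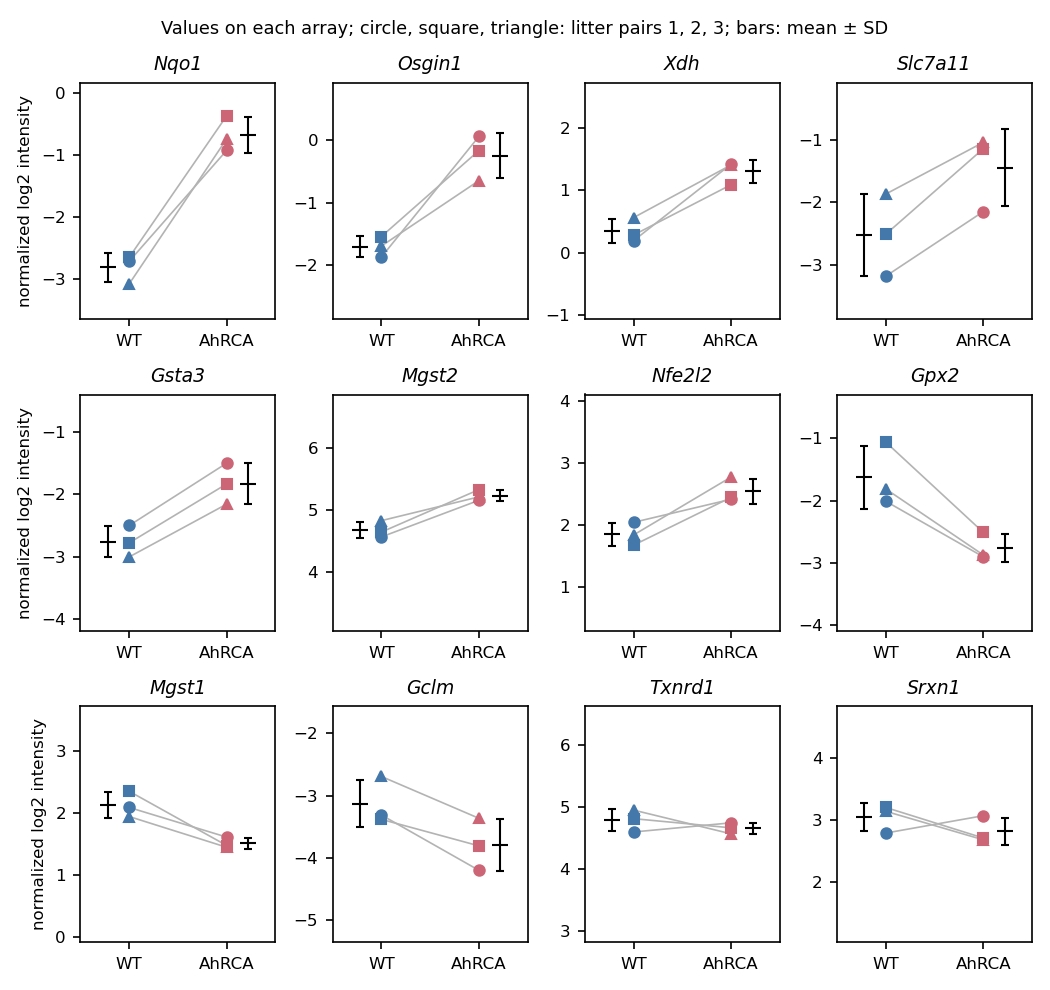
Normalized log2 intensity (y axis, 3.8 units in every panel) of 12 members on each array, WT in blue and AhRCA in red; symbols and grey lines give the litter pairs, and bars the mean ± SD (n = 3). Nqo1, Osgin1 and Xdh separate without overlap, Slc7a11 overlaps between groups while AhRCA is higher in each pair, and Txnrd1 and Srxn1 overlap.

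Glutathione synthesis depends on cystine import by the product of Slc7a11, on glutamate-cysteine ligase, whose catalytic and modifier subunits are encoded by Gclc and Gclm, and on the synthetase Gss. None of 5 genes passed in the unpaired fit, and their median was -0.01. Slc7a11 was at -3.19, -2.51 and -1.87 in WT and at -2.15, -1.14 and -1.03 in AhRCA, so that AhRCA 1 lay within the WT range. Within pairs it was higher in 3 of 3, by 1.04, 1.38 and 0.83. The log2 fold change of 1.08 ± 0.42 had an adjusted p of 0.351, and of 0.0288 with the litter pair as a block, where Slc7a11 rose (limma). Without any 1 array its adjusted p lay between 0.198 and 0.725. Its further probes gave 1.53 and 0.59 and were not well above background on every array.

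The subunits of glutamate-cysteine ligase had values of opposite sign. Gclc was at 0.71, 0.78 and 0.80 in WT and at 0.997, 1.02 and 0.96 in AhRCA, without overlap but with a small difference of 0.23 ± 0.10 (adjusted p = 0.421, limma). Gclm was at -3.31, -3.38 and -2.69 in WT and at -4.20, -3.81 and -3.37 in AhRCA, lower in 3 of 3 pairs, with AhRCA 3 inside the WT range. Its log2 fold change was -0.66 ± 0.27, with an adjusted p of 0.394, and of 0.0654 with the litter pair as a block (limma). After normexp it was -0.26. The difference between the subunits was not tested. Gss had -0.23 ± 0.20, and Gsr, the reductase that restores oxidized glutathione, had -0.01 ± 0.14, with 0.10 and -0.06 in its further probes.

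The thioredoxin genes, which reduce protein disulfides and peroxiredoxins, did not pass in any setting, 0 of 5 with a range of -0.22 to 0.04. Txnrd1, the cytosolic thioredoxin reductase, was at 4.60, 4.81 and 4.95 in WT and at 4.75, 4.67 and 4.57 in AhRCA. Srxn1, which reactivates overoxidized peroxiredoxins, was at 2.79, 3.20 and 3.14 in WT and at 3.07, 2.71 and 2.68 in AhRCA. Both genes overlapped between groups, with log2 fold changes of -0.13 ± 0.13 and -0.22 ± 0.17. The upper limit of the 95% interval was 0.18 for each. Further Srxn1 probes gave values nearer zero, -0.024 and -0.045. Txn1, Prdx1 and Prdx6 had -0.01, 0.04 and -0.11.

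NADPH, the electron source for both cycles, comes from the pentose phosphate pathway. Its genes G6pdx, Pgd, Taldo1 and Tkt had log2 fold changes between -0.20 and -0.02, with 0 of 4 past the threshold. Tkt, the transketolase, had the largest value in size. It stood at 5.49, 5.46 and 5.21 in WT and at 5.28, 5.33 and 4.95 in AhRCA, lower in 3 of 3 pairs, but overlapping and at -0.20 ± 0.15 (adjusted p = 0.815, limma). A further Tkt probe had the opposite sign, 0.14, and with both averaged Tkt had -0.03. G6pdx, on the X chromosome, had pair differences of 0.004, 0.01 and -0.31.

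**Figure D4:**
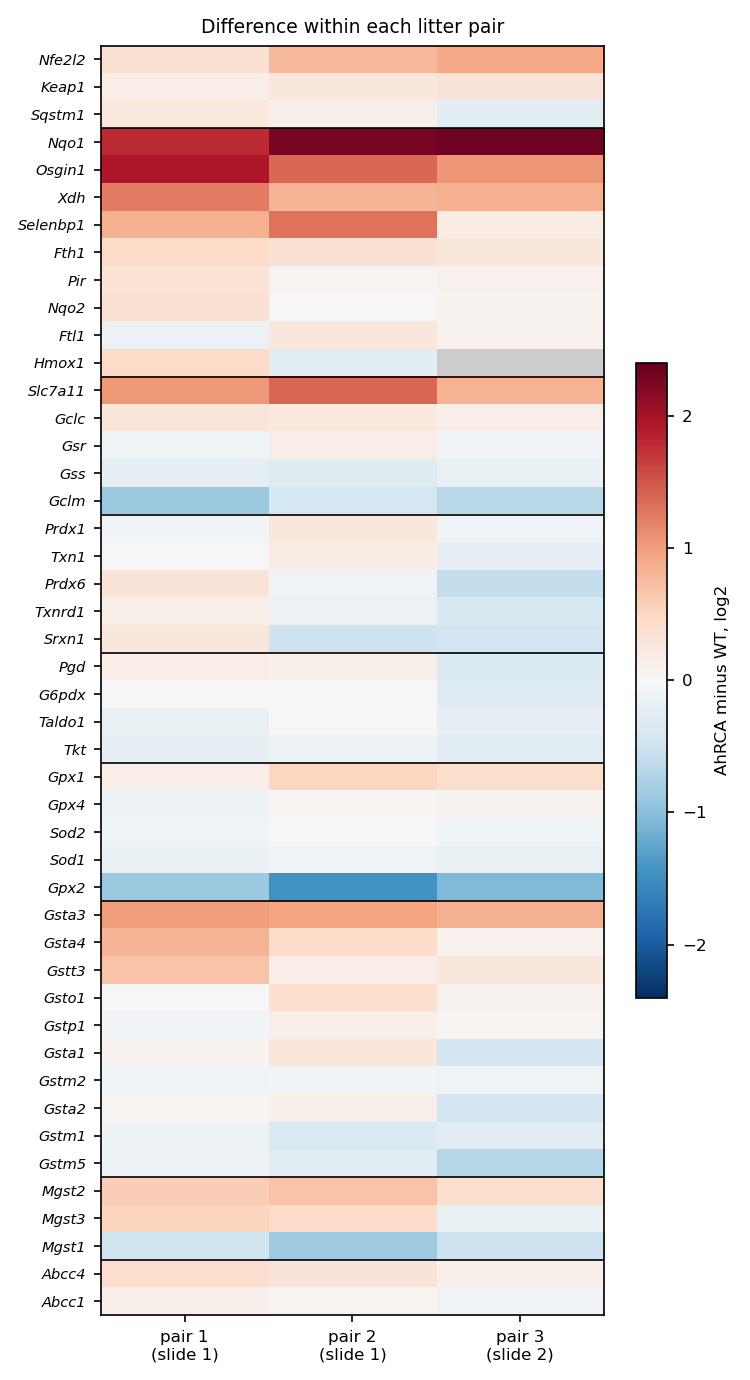
Difference of AhRCA minus WT on the log2 scale (colour, red higher and blue lower) in each litter pair (columns) for the 46 tested members (rows, ordered by role); the grey cell is Hmox1 in pair 3, where a spot was left out. Nqo1, Osgin1, Xdh, Slc7a11, Gsta3 and Nfe2l2 are red in all 3 pairs, and Gpx2, Gclm and Mgst1 are blue in all 3.

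Among enzymes that remove peroxide and superoxide, 0 of 5 passed in the unpaired fit. Gpx2, a glutathione peroxidase known from epithelia, was at -2.01, -1.06 and -1.81 in WT and at -2.90, -2.51 and -2.87 in AhRCA, every AhRCA array lying below WT. The log2 fold change was -1.14 ± 0.26 (2.20-fold lower) with an adjusted p of 0.101, and of 0.0275 with the litter pair as a block, where Gpx2 fell (limma). The differences within pairs were -0.89, -1.45 and -1.06, and only 2.07% of genes had a larger fall. The sebaceous and Merkel cell marker lists fell in the same arrays, and their part in the value of Gpx2 was not tested. Gpx1, the cytosolic peroxidase, was at 5.62, 5.44 and 5.19 in WT and at 5.78, 5.95 and 5.62 in AhRCA. Its lowest AhRCA array and its highest WT array nearly met, and its log2 fold change was 0.37 ± 0.15 (adjusted p = 0.409, limma). Gpx4, which reduces lipid peroxides, had 0.01 ± 0.19, and the superoxide dismutases Sod1 and Sod2 had -0.14 ± 0.18 and -0.07 ± 0.11.

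Cytosolic glutathione transferases join glutathione to electrophiles. Of 10 tested genes 0 passed in the unpaired fit, 5 had positive and 5 negative values, and the median was 0.01. Near-identical copies in the alpha, mu and pi classes can share a probe, so values of single genes in these classes are uncertain. Gsta3 was at -2.50, -2.78 and -3.005 in WT and at -1.50, -1.83 and -2.16 in AhRCA, without overlap. Its log2 fold change was 0.93 ± 0.21 (1.91-fold) with an adjusted p of 0.0906, and of 0.0153 with the litter pair and 0.0272 with the slide as a block, where Gsta3 rose (limma). Its differences within pairs were close, at 1.003, 0.95 and 0.85, and a further probe gave 1.20. With its probes averaged Gsta3 passed too. In the same class Gsta1 and Gsta2 had -0.02 ± 0.16 and -0.09 ± 0.30, and Gsta4 had 0.44 ± 0.19. In the mu class Gstm5 was at 2.71, 2.80 and 2.84 in WT and at 2.58, 2.53 and 2.16 in AhRCA, and Gstm1 at 3.19, 3.33 and 3.11 and at 3.06, 2.96 and 2.86. Both had AhRCA below WT without overlap, at -0.36 ± 0.14 and -0.25 ± 0.11, and neither passed (adjusted p = 0.364 and 0.492, limma). Gstm5 had -0.23 without AhRCA 3. Gstm2, Gstp1 and Gsto1 lay between -0.08 and 0.17, and Gstt3 had 0.38 ± 0.18.

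The membrane-bound transferases Mgst1 and Mgst2 had values of opposite sign. Mgst2, which also makes leukotriene C4, was at 4.57, 4.65 and 4.83 in WT and at 5.16, 5.33 and 5.21 in AhRCA. Mgst1, the main form of the endoplasmic reticulum and outer mitochondrial membrane, was at 2.09, 2.35 and 1.94 in WT and at 1.61, 1.48 and 1.45 in AhRCA. Neither pair of groups overlapped, and the log2 fold changes were 0.55 ± 0.12 for Mgst2 and -0.61 ± 0.14 for Mgst1, with adjusted p of 0.0787 and 0.0901 (limma). With the slide as a block Mgst2 rose (adjusted p = 0.0469) and Mgst1 fell (0.0447, limma), while the litter pair as a block gave 0.0646 and 0.0729. Mgst2 also passed with normexp (0.0463, limma), and Mgst1 with the mean of its probes. Sebaceous gland markers fell in the same arrays as Mgst1, and their part in its value was not tested. Mgst3 had 0.28 ± 0.22, with -0.16 in pair 3. Of the exporters of glutathione conjugates, Abcc4 was at 0.33, 0.42 and 0.54 in WT and 0.72, 0.73 and 0.67 in AhRCA, with 0.28 ± 0.11 (adjusted p = 0.344, limma), and Abcc1 had 0.04 ± 0.11.

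In all, AhRCA arrays lay wholly above WT for 12 of 45 members with a value on every array (26.7%, where 7.52% of all genes did so), and wholly below for 4 (8.89%, background 8.84%). In either direction 16.4% of all genes did so. The first group held Nqo1, Osgin1, Xdh, Selenbp1, Fth1, Pir, Nfe2l2, Gclc, Gpx1, Gsta3, Mgst2 and Abcc4, and the second Gpx2, Gstm1, Gstm5 and Mgst1. The 95% interval of the log2 fold change lay within 1 unit of zero, that is within a 2-fold change, for 37 of 46 members (80.4%, against 85.6% of all genes). Among them were Hmox1, Txnrd1, Srxn1, Gclc, Prdx1 and the 4 NADPH genes. Among those outside it were Nqo1, Osgin1, Xdh, Slc7a11, Gclm and Gpx2.

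A wider list of 72 genes of the same pathways that are no members, among them the partners of NRF2, further peroxiredoxins, glutaredoxins, transferases and exporters, had 66 genes on the array and 61 tested. Of these, 60 were well above background on all 6 arrays, and 0 of the 60 passed when tested on that filter (limma). An unadjusted p under 0.05 was found for 10 of the 61, 4 with higher values, Sod3 included, and 6 with lower values. Over all genes tested it was found for 12.2%, 4.62% with higher and 7.57% with lower values. The remaining gene was Sod3, the extracellular superoxide dismutase, which was well above background on 3 of 3 AhRCA arrays and on 0 of 3 WT arrays. Sod3 passed the filter on dim probes through its AhRCA arrays alone, so it had to differ, and its call is given as a description and not counted as a rise of the list. In the main setting Sod3 was at least 1.87-fold higher (measured means -4.14 in AhRCA and -5.07 in WT, adjusted p = 0.0356, limma). That bound holds for this setting alone. It sets each WT array at the higher of its own value and the lowest well-above-background signal. Sod3 did not pass after normexp (0.26 on the log2 scale, adjusted p = 0.372, limma), with no filter on dim probes (0.083) or without WT 1 (0.101), WT 2 (0.152), AhRCA 1 (0.134), AhRCA 2 (0.131) or AhRCA 3 (0.0937).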

How the data were processed

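Spot intensities were made with Agilent Feature Extraction 10.7.3.1, 1 array at a time, per the file headers. The authors' deposited table holds log2 values whose differences between arrays equal those of the log2 processed intensity (slope 1), with each probe centred on its median; the median of each column was -0.0705, -0.0495 and 0.0827 (WT 1, 2, 3) or 0.0283, 0.0638 and -0.071 (AhRCA 1, 2, 3), and it was used as an alternative.

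From the processed intensity, log2 values were computed and the 75th percentile of the non-control spots of that array subtracted. Control spots (1639 of 45018) and 56 to 94 outlier spots per array were left out, and spots of a probe were averaged. Accessions without version were matched to RefSeq symbols of GRCm38.p6: of 41174 probes 26690 matched 1 symbol, 0 several and 14484 none. Probes were kept where 3 or more of the 6 arrays had them well above background, and the brightest stood for its gene. Of 15 members with several kept probes, 3 had probes of both signs, differing by at most 0.34.

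Genotypes were compared with limma 3.58.1 in R 4.3.3 (lmFit, eBayes, 2 group means, prior degrees of freedom 2.62), two-sided, with Benjamini-Hochberg adjustment; the script was tested on simulated data. Pairing comes from the littermate samplings in the labels. Deviations from group means of same-numbered arrays correlated at 0.337, 0.372 and 0.55 over 12821 genes. For arrays of different number the values were 0.194 and 0.15 within slide 1 and -0.416 to -0.356 between slides. The 0.55 is that of pair 3, where slide, pair and sex coincided. Normexp used median spot and background intensities. Members and lists were chosen with earlier results of these data known. Per-array values are given for members that passed in the unpaired fit or with the pair or the slide as a block, for 10 classical genes, for the 5 largest positive and 5 largest negative log2 fold changes, and for the largest in size in each role.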

Additional observations from a re-analysis of the deposited data

How the results depend on the processing

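The count of called members, 3 in the main setting, was also 3 under quantile normalization, median scaling, the deposited values, probes above background on all 6 arrays and with outlier spots kept (an alternative chosen after seeing the data), and 4 with normexp. It was 1 with no filter on dim probes, 5 with probes of a gene averaged, 6 with the litter pair as a replicate block, 6 with the slide as a block and 1 on slide 1 alone, and 1 to 2 when an array was left out (1 without WT 1, WT 2, AhRCA 1 or AhRCA 2). The count over all genes, 279, was 132, 300, 497, 539 and 130 in those 5 settings and 62 to 195 when an array was left out (62 without WT 2, 71 without AhRCA 2, 104 without AhRCA 1, 151 without AhRCA 3, 185 without WT 3). The wider list's count of 1, which is Sod3, was 0 with normexp, with probes above background on all 6 arrays and with no filter, and 0 to 1 when an array was left out. The members' median of 0.04 ranged from -0.03 to 0.13 when an array was left out. The count of members with an XRE core, 27, was 4 with the flanked letters. Beyond the unfiltered table, where Osgin1 (adjusted p = 0.0574) and Xdh (0.0777) did not pass (limma), calls of members that changed are given with each gene, and the block changed no other call of a member. Of 46 members 38 did not pass in any setting and 29 kept their sign in all 17 alternatives; the 17 others had a log2 fold change of at most 0.15 in size. The cause of these differences was not tested, except that the unfiltered table adjusts over more genes and slide 1 alone holds fewer arrays.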

Other observations

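Among genes of the same pathways outside the members, several that missed the adjusted threshold had groups that did not overlap. Abcc3, a further exporter of conjugates, had the largest positive value, 1.16 ± 0.28 (adjusted p = 0.109, limma), with -1.07, -1.26 and -0.96 in WT and 0.71, -0.26 and -0.25 in AhRCA. Bach1, a repressor that competes with NRF2 for its elements, had 0.46 ± 0.17 (adjusted p = 0.333). On the lower side, Ggt1, which breaks down extracellular glutathione, had -0.99 ± 0.31 (adjusted p = 0.227), Slc7a8, an amino acid transporter, -0.95 ± 0.32 (0.272), Chac1, which degrades glutathione in the cytosol, -0.60 ± 0.20 (0.246), and Ephx1, the microsomal epoxide hydrolase, -0.53 ± 0.14 (0.134, limma). In the wider list AhRCA lay wholly above WT for 7 of 61 genes and wholly below for 10, where 7.52% and 8.84% of all genes did so. The 7 include Sod3, which passed the filter through its AhRCA arrays alone and so had to differ.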
